A study of Mus musculus with 12 samples.

Results

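The genes described here are 9 mouse adhesion molecules: the cadherins Cdh1, Cdh2, and Cdh5, the intercellular adhesion molecules Icam1, Icam2, and Icam4, and Vcam1, Pecam1, and Epcam. They were chosen by name, as the classical cadherins, ICAMs, and related molecules of the populations sorted, and are 9 of the 38127 genes counted. The study asked what the Kit+ cells of the fetal liver are that carry neither Ter119 nor CD45, and compared them by bulk RNA sequencing with the epithelial and endothelial cells of the same organ. All 12 libraries came from liberase-digested livers of C57BL/6 mouse embryos, and all cells were negative for the erythrocyte marker Ter119 and the pan-hematopoietic marker CD45. No genotype or treatment is given for any group. P2 cells were sorted at embryonic day (E) 14.5 as CD54-CD31-Kit+CD24+. CD54+CD31- cells were sorted at E14.5 and, in a separate group, at E18.5, and CD31+ cells, which also carried CD54, at E14.5. Each of the 4 groups has 3 libraries, which the study describes for E14.5 as independent litters. Each library holds the RNA of many cells, so fewer cells of a type and less RNA per cell cannot be told apart in any value below.

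Classical cadherins are calcium-dependent proteins that bind the same cadherin on a neighboring cell and are anchored to actin through catenins. ICAMs, VCAM-1, and PECAM-1 belong to the immunoglobulin superfamily. ICAMs and VCAM-1 are bound by integrins of blood cells, and in the fetal liver such contacts hold hematopoietic cells to stromal cells and macrophages. EpCAM is an epithelial membrane protein that marks bile duct cells in the adult liver and many other epithelia.

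The sort itself used 2 of these proteins: CD54 is the product of Icam1 and CD31 that of Pecam1. The study also calls the E14.5 CD54+CD31- cells CD324+, and CD324 is E-cadherin, the product of Cdh1. Differences of Icam1, Pecam1, and Cdh1 that run along these gates are a check of the sort and not a finding. The proteins of the other 6 genes were not gated.

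Libraries held 40714017 to 64368883 counts, and Cdk8, Zc3h7a, and Il1rapl1 together took 10.8% to 23.1% of each of the 12. Levels are given as CPM, counts relative to a library size that was adjusted by edgeR's TMM method over all 12 libraries. At E14.5 each of 3 marker lists had its highest summed level in the population that its label names. The 8 hepatoblast markers summed to 68596 to 78886 CPM in CD54+CD31- cells and to 669 to 678 in P2 cells. The 9 endothelial markers summed to 8766 to 9170 in CD31+ cells, and the 8 erythroid markers to 2098 to 2187 in P2 cells. Erythroid markers were also present in the other populations, at 243 to 424 CPM in CD54+CD31- cells and 234 to 333 in CD31+ cells. The 8 macrophage markers summed to 1347 to 1593 CPM in CD31+ cells, of which Mrc1, a gene that sinusoidal endothelium also expresses, had 1305 to 1517 CPM, and against CD54+CD31- cells 1 of the 8, Mrc1, was higher and 5 were lower. Megakaryocyte markers summed to 289 to 520 CPM in CD31+ cells. The E18.5 CD54+CD31- libraries went against a liver label in part: all 8 lung epithelium markers rose against E14.5, and their sum was 9531 to 21218 CPM, against 151 to 165 at E14.5. In the same E18.5 libraries stellate and mesenchymal markers summed to 3192 to 3531 CPM and cholangiocyte markers to 717 to 1067 CPM. Mesothelial markers summed to 308 to 521 CPM. Lrat, the gene of the stellate cell enzyme that esterifies retinol, was at 0 in all groups. Whether that 0 comes from the counting was not tested, so it is not read as a lack of stellate cells. A pair of libraries stood apart from the others of their group. P2 replicate 2 had endothelial markers at 388 CPM, against 76.3 and 119 in replicates 1 and 3. E18.5 replicate 1 had hepatoblast markers at 4551 CPM, against 35152 and 45402, and lung markers at 21218, against 9531 and 9742.

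The sequence before the start site is shown for Icam1, whose protein defined the gates, and for Epcam, the member with the largest change between the ages. They come from RefSeq promoters on GRCm38.p6, which held 3 of the 9 genes, the third being Icam4. Each runs over the 250 bases before the annotated start, on the plus strand, with matches to GGAA (the ETS core) and CAGGTG (an E-box bound by Snail and Zeb factors), or to their reverse complements TTCC and CACCTG, in capitals.
Icam1, chr9:21015690-21015939: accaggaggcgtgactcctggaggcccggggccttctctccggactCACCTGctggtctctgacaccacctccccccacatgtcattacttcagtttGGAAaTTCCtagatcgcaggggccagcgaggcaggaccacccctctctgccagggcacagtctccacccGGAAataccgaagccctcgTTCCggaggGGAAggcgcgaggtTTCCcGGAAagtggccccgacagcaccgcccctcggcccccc
Epcam, chr17:87635729-87635978: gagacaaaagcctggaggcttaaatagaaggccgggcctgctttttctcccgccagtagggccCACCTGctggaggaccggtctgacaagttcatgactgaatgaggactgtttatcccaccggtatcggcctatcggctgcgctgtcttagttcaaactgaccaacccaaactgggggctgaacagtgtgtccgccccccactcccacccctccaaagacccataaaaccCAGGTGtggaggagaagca
The Icam1 window holds 7 matches to the ETS core and 1 to the E-box. The Epcam window holds 0 ETS core matches and 2 E-box matches, which begin 187 and 19 bases before the start. Of 32851 promoter windows of this length, 93.4% hold an ETS core on either strand and 17.2% an E-box. The letters AGATAA, the site of erythroid zinc finger factors, are held by 9.99% of windows and have 0 matches in both. CACCC, a Kruppel-like box held by 52.0%, has 2 matches in Icam1 and 1 in Epcam. No match of one motif overlaps a match of another in these windows. These are matches of letters, with no binding measured.

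At E14.5 the highest levels of the members were divided between both CD54+ populations. CD54+CD31- cells had the highest Cdh1, Cdh2, Vcam1, and Epcam of the 3 populations, CD31+ cells the highest Cdh5, Pecam1, Icam2, and Icam1, and P2 cells were below one or both of them for each, with Icam2 the one member called higher than in CD54+CD31- cells. Icam4 had 0 counts in all 12 libraries and was not tested. Of the 8 members that passed the low count filter, 1 was higher and 5 were lower in P2 than in CD54+CD31- cells (quasi-likelihood test of edgeR, adjusted p below 0.05), where 70.0% of all 15461 genes tested were called, 33.8% higher and 36.1% lower. Against CD31+ cells, 7 were lower in P2 cells, with a background of 73.7% (34.3% higher, 39.4% lower), and Epcam did not pass. Between CD31+ and CD54+CD31- cells 4 were higher and 4 lower, with a background of 65.6% (31.7% higher, 34.0% lower). Between E18.5 and E14.5 CD54+CD31- cells 6 were higher and 2 lower, with a background of 69.4% (35.9% higher, 33.5% lower). In that comparison age and the cell make-up of the libraries, shown above by their markers, cannot be told apart for any member. Most genes differ between these populations, so the counts of members called are not by themselves unusual, and the sizes of the differences carry the description below. The median log2 fold change of all genes was -0.01, -0.13, -0.03, and 0.03 in these 4 comparisons. The counts of members include Icam1, Pecam1, and Cdh1, whose differences along the gates are a check of the sort. Of the other members tested, P2 cells had Icam2 higher and Cdh2, Vcam1, and Epcam lower than CD54+CD31- cells. Against CD31+ cells, P2 cells had Cdh2, Cdh5, Icam2, and Vcam1 lower.

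**Figure D1:**
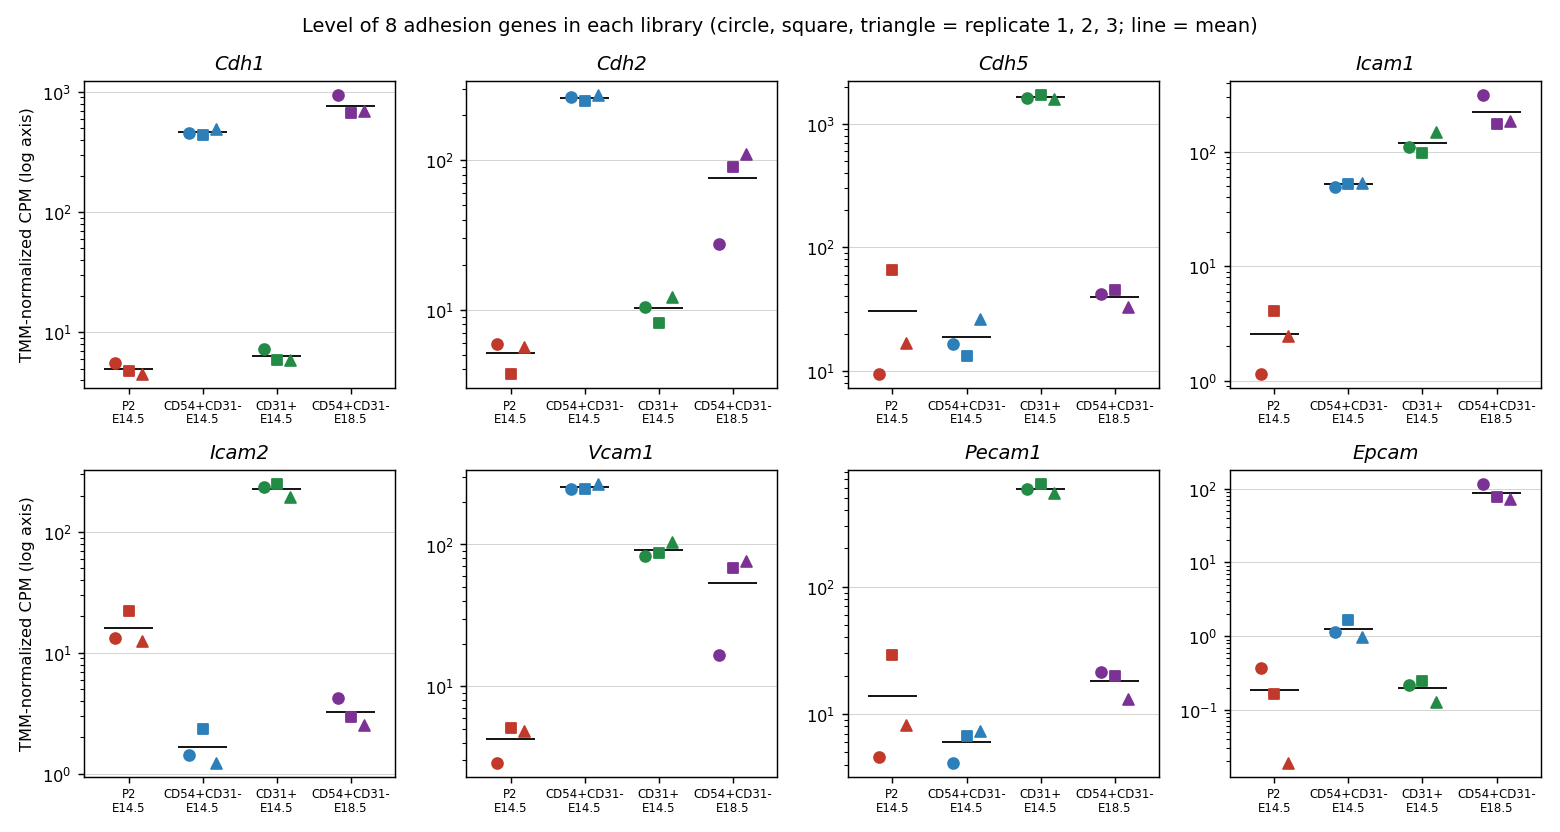
TMM-normalized CPM of 8 adhesion genes in each of the 12 libraries, on log axes that differ between panels; symbols mark replicates and lines the means of 3 libraries. Cdh5, Pecam1, and Icam2 are highest in all CD31+ libraries, Cdh2 and Vcam1 in all E14.5 CD54+CD31- libraries, and Epcam in all E18.5 libraries.

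Cdh1, the epithelial cadherin of hepatoblasts and bile duct cells (ENSMUSG00000000303, GRCm38 chromosome 8 from 106603351 to 106670246), was measured at 458, 439, and 491 CPM in E14.5 CD54+CD31- cells. It stood at 7.33, 5.84, and 5.85 CPM in CD31+ cells and at 5.56, 4.75, and 4.51 CPM in P2 cells. The E18.5 libraries had 944, 668, and 701 CPM. The order from high to low was thus E18.5, E14.5 CD54+CD31-, CD31+, and P2, with no overlap between neighbors. As the check of the sort, P2 cells were 95.0-fold lower than CD54+CD31- cells (log2 fold change -6.57) and CD31+ cells 73.3-fold lower (-6.20). Between P2 and CD31+ cells the log2 fold change was -0.37 (standard error 0.12, adjusted p = 0.0169), or -0.24 relative to the median of all genes. That last call was lost when the 12 libraries were fitted together (adjusted p = 0.0554) or only the 6 compared (0.104), and without CD31+ replicate 1 (0.0598), P2 replicate 2 (0.0546), or P2 replicate 3 (0.0772). At E18.5 Cdh1 was 1.90-fold higher than at E14.5 (0.93, standard error 0.18, adjusted p = 0.00326).

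Cdh2, which encodes N-cadherin, present together with E-cadherin on hepatocytes (ENSMUSG00000024304, chromosome 18 from 16588877 to 16809246), had 263, 248, and 273 CPM in E14.5 CD54+CD31- cells. CD31+ cells had 10.5, 8.11, and 12.2 CPM, and P2 cells 5.93, 3.73, and 5.66 CPM. At E18.5 the values were 27.7, 90.1, and 110 CPM. Replicate 1 was the lowest there, 0.276 times the mean of the other 2 libraries, and all 3 lay below every E14.5 CD54+CD31- library. P2 cells were 51.9-fold lower than CD54+CD31- cells (-5.70, standard error 0.22, adjusted p = 4.93e-09) and 2.03-fold lower than CD31+ cells (-1.02, standard error 0.19, adjusted p = 0.000575). CD31+ cells were 25.6-fold lower than CD54+CD31- cells (-4.68, standard error 0.20, adjusted p = 1.64e-08). From E14.5 to E18.5 the level fell by 1.61 on the log2 scale (standard error 0.45, adjusted p = 0.0172). Of the 8 hepatoblast markers, 3 were lower and 1 higher in the same comparison, and their part in the fall was not tested. Without E18.5 replicate 1 the level fell by 1.22 (adjusted p = 1.34e-05), and the call was lost without E14.5 replicate 1 (adjusted p = 0.0514) or replicate 3 (0.0520). Cdh1 and Cdh2 therefore moved in opposite directions between the ages. Per kilobase of exon, the Cdh2 level was 0.315 to 0.326 of the Cdh1 level in the 3 E14.5 libraries. In the E18.5 libraries it was 0.0166, 0.0764, and 0.0891 of the Cdh1 level. The size of this ratio depends on the length used. Per kilobase of the longest transcript, mean Cdh2 and Cdh1 levels were 54.0 and 104 at E14.5, and 15.7 and 174 at E18.5.

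Cdh5, the endothelial cadherin VE-cadherin (ENSMUSG00000031871, chromosome 8 from 104101625 to 104144511), had 1626, 1712, and 1592 CPM in CD31+ cells. By mean level it took place 23 among 16643 genes there. CD54+CD31- cells had 16.6, 13.1, and 26.1 CPM at E14.5 and 41.6, 44.7, and 32.9 CPM at E18.5. P2 cells had 9.42, 66.0, and 16.8 CPM, a range of 7.01-fold that spans both CD54+CD31- groups. CD31+ cells were 87.8-fold above CD54+CD31- cells (6.46, standard error 0.71, adjusted p = 1.85e-05) and P2 cells 53.9-fold below CD31+ cells (-5.75, standard error 0.69, adjusted p = 2.57e-05). Between P2 and CD54+CD31- cells the difference of 0.70 did not pass (standard error 0.57, adjusted p = 0.294), and it was -0.52 without P2 replicate 2 (adjusted p = 0.122). E18.5 cells were 2.43-fold above E14.5 cells (1.28, standard error 0.26, adjusted p = 0.00420), a call that was lost in the fit of all 12 libraries (adjusted p = 0.0992).

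Pecam1, which encodes CD31 (ENSMUSG00000020717, chromosome 11 from 106654217 to 106750628), had 585, 645, and 542 CPM in the CD31+ cells that were sorted on it. The CD31- groups had 4.16, 6.67, and 7.40 CPM (CD54+CD31-, E14.5), 21.3, 19.9, and 13.2 CPM (CD54+CD31-, E18.5), and 4.57, 29.0, and 8.24 CPM (P2). All 9 libraries sorted as CD31- thus held Pecam1 transcripts, at 147 to 1536 counts a library. As the check of the sort, CD31+ cells were 96.6-fold above CD54+CD31- cells and 42.7-fold above P2 cells. Endothelial markers summed to 27.6 to 44.4 CPM in E14.5 CD54+CD31- cells, 183 to 225 CPM at E18.5, and 76.3, 388, and 119 CPM in P2 cells, and all 9 were higher in both of the latter groups than in the first; the part of endothelial cells in the Cdh5, Pecam1, and Icam2 levels of the CD31- groups was not tested. Among these groups, E18.5 cells were 3.41-fold above E14.5 cells (1.77, standard error 0.27, adjusted p = 0.00114). P2 cells differed from E14.5 CD54+CD31- cells by 1.18 (standard error 0.55, adjusted p = 0.0774). That difference was 0.07 without P2 replicate 2, and it passed without P2 replicate 1 (1.58, adjusted p = 0.00734) or P2 replicate 3 (1.45, adjusted p = 0.0487), and with no low count filter (1.17, adjusted p = 0.0453).

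Icam2, an endothelial and platelet ligand of the leukocyte integrin LFA-1 (ENSMUSG00000001029, chromosome 11 from 106377656 to 106388075), had 237, 251, and 196 CPM in CD31+ cells. P2 cells had 13.3, 22.0, and 12.4 CPM, while CD54+CD31- cells had 1.41, 2.36, and 1.23 CPM at E14.5 and 4.24, 2.92, and 2.53 CPM at E18.5. The 4 groups did not overlap. P2 cells were 9.53-fold above CD54+CD31- cells of the same age (3.25, standard error 0.29, adjusted p = 2.60e-06), with 2.96 (adjusted p = 1.96e-07) when P2 replicate 2 was left out, and 14.4-fold below CD31+ cells (-3.85, standard error 0.26, adjusted p = 4.67e-07). CD31+ cells were 137-fold above CD54+CD31- cells (7.10, standard error 0.32, adjusted p = 1.99e-08). The rise of 1.15 from E14.5 to E18.5 (standard error 0.34, adjusted p = 0.0212) was lost without E14.5 replicate 1 (adjusted p = 0.0694) or replicate 3 (0.0714). Icam2 and Pecam1 are also genes of megakaryocytes, whose markers summed to 289 to 520 CPM in CD31+ cells, and the part of these cells was not tested.

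In P2 cells Icam2, Cdh5, and Pecam1 did not stand in the proportions that they had in CD31+ cells. Per kilobase of exon, the ratio of the Icam2 to the Pecam1 level was 1.18 to 1.33 in the CD31+ libraries and 2.49 to 9.55 in the P2 libraries, with P2 replicate 2, the library with the most endothelial markers, at the low end. On the same scale the ratio of Icam2 to Cdh5 was 0.271 to 0.324 in CD31+ and 0.737 to 3.13 in P2 libraries. The ratio of Cdh5 to Pecam1 per kilobase was 3.02 to 3.38 in P2 libraries, against 3.93 to 4.35 in CD31+ libraries. In all 3 ratios the P2 and CD31+ libraries did not overlap, so the proportion of Cdh5 to Pecam1 differed as well. These ratios were examined after the values were seen and were not tested.

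**Figure D2:**
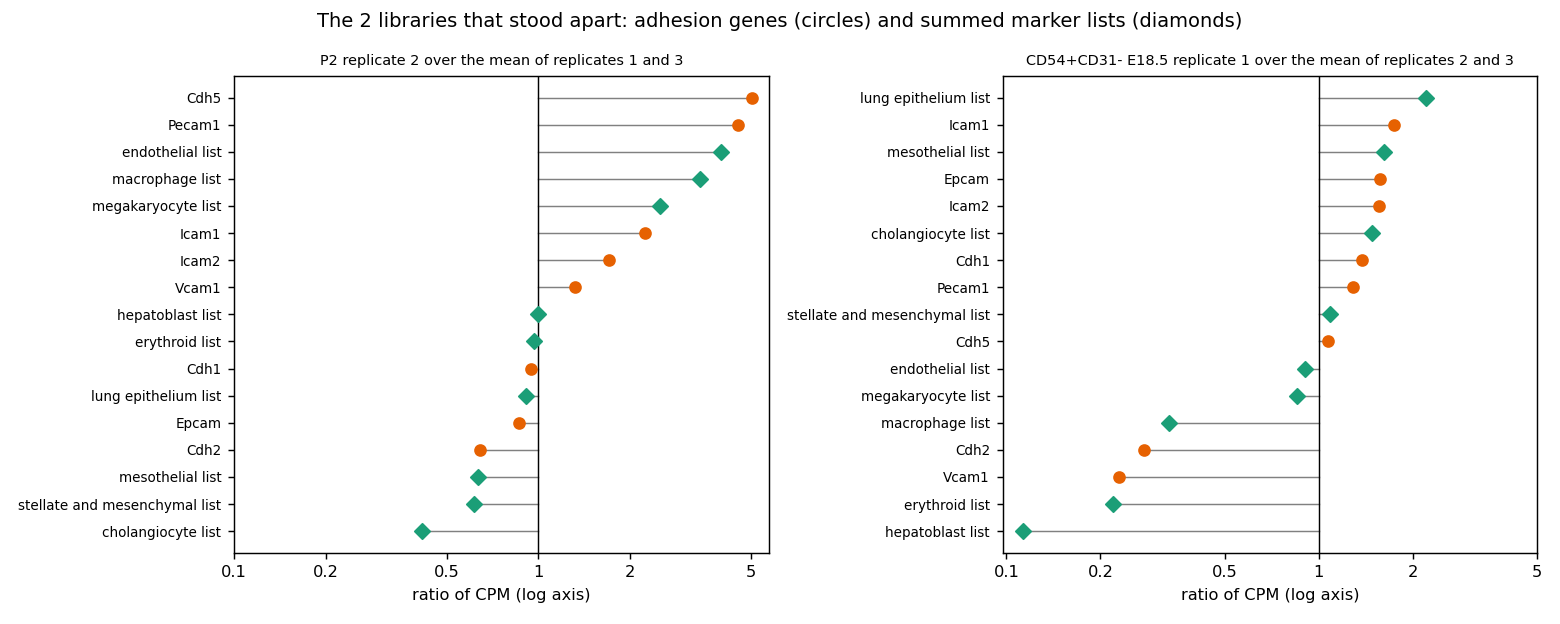
The level in 1 library divided by the mean of the other 2 of its group, on a log axis, for P2 replicate 2 (left) and E18.5 CD54+CD31- replicate 1 (right); circles are adhesion genes, diamonds the summed levels of marker lists. Cdh5 (5.04) and Pecam1 (4.52) lie with the endothelial list (3.98) at the left, and Vcam1 (0.230) and Cdh2 (0.276) near the macrophage (0.332), erythroid (0.220), and hepatoblast (0.113) lists at the right.

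In P2 replicate 2, Cdh5 was 5.04 times and Pecam1 4.52 times the mean of the other 2 P2 libraries, beside endothelial markers at 3.98, macrophage markers at 3.41, mostly Mrc1, and megakaryocyte markers at 2.51 times. Icam1 was 2.25 times and Icam2 1.71 times that mean, while erythroid markers (0.968), Kit (0.941), and Cdh1 (0.943) were near it. In E18.5 replicate 1, Epcam (1.57), Icam1 (1.74), and Cdh1 (1.38) were above the other 2 libraries together with lung (2.20), mesothelial (1.61), and cholangiocyte (1.48) markers, and Cdh2 and Vcam1 were below them. The part of these other cell types in the values of the members was not tested. Without E18.5 replicate 1, the same counts of 6 members higher and 2 lower were called against E14.5, and without P2 replicate 2, 1 higher and 5 lower against CD54+CD31- cells.

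Icam1, the gene of CD54 (ENSMUSG00000037405, chromosome 9 from 21015985 to 21028817), a ligand of the integrins LFA-1 and Mac-1 that inflammatory signals raise, had 49.7, 52.3, and 53.6 CPM in E14.5 CD54+CD31- cells. CD31+ cells had 110, 97.2, and 148 CPM, and E18.5 CD54+CD31- cells 313, 175, and 185 CPM. P2 cells, sorted as CD54-, had 1.15, 4.06, and 2.46 CPM. As the check of the sort, P2 cells were 20.4-fold below CD54+CD31- cells and 46.4-fold below CD31+ cells. The 3 CD54+ groups also differed among themselves, within the same gate. CD31+ cells were 2.27-fold above CD54+CD31- cells (1.18, standard error 0.30, adjusted p = 0.00554), and E18.5 cells were 4.94-fold above E14.5 cells (2.31, standard error 0.25, adjusted p = 0.000242). E18.5 CD54+CD31- cells were 1.90-fold above E14.5 CD31+ cells (0.92, standard error 0.34, adjusted p = 0.0309), where age and population cannot be told apart, and that call was lost without E18.5 replicate 1 (adjusted p = 0.0982), CD31+ replicate 1 (0.0844), or CD31+ replicate 2 (0.105). In that comparison 4 members were higher and 3 lower, with a background of 68.5% (29.7% higher, 38.8% lower).

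Vcam1, the ligand of the integrin VLA-4 on hematopoietic cells (ENSMUSG00000027962, chromosome 3 from 116109949 to 116129688), had 248, 246, and 268 CPM in E14.5 CD54+CD31- cells. CD31+ cells had 82.7, 86.9, and 105 CPM, E18.5 cells 16.6, 68.0, and 76.3 CPM, and P2 cells 2.89, 5.08, and 4.83 CPM. P2 cells were 60.1-fold below CD54+CD31- cells (-5.91, standard error 0.21, adjusted p = 3.54e-09) and 21.5-fold below CD31+ cells (-4.43, standard error 0.20, adjusted p = 5.33e-08). CD31+ cells were 2.79-fold below CD54+CD31- cells (-1.48, standard error 0.17, adjusted p = 2.98e-05), so Vcam1 and Icam1, both ligands for integrins of blood cells, were ordered oppositely between these populations. From E14.5 to E18.5 Vcam1 fell by 2.07 on the log2 scale (standard error 0.51, adjusted p = 0.00993), and by 1.65 (adjusted p = 8.86e-07) without E18.5 replicate 1. Between E18.5 cells and CD31+ cells the libraries did not overlap, but the difference of -0.77 did not pass (standard error 0.42, adjusted p = 0.123).

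Epcam (ENSMUSG00000045394, chromosome 17 from 87635979 to 87651129) was close to the lower end of detection at E14.5. It had 1.13, 1.67, and 0.962 CPM in CD54+CD31- cells, from 39 to 53 counts a library, 0.216, 0.249, and 0.127 CPM in CD31+ cells, from 8 to 14 counts, and 0.367, 0.167, and 0.0193 CPM in P2 cells, from 1 to 16 counts. At E18.5 it had 117, 77.0, and 72.3 CPM. E18.5 cells were 81.2-fold above E14.5 cells of the same gate (6.34, standard error 0.32, adjusted p = 2.06e-05), the largest change of any member between the ages, and the value was 6.08 (adjusted p = 2.49e-08) without E18.5 replicate 1. At E14.5 both P2 cells (-2.79, standard error 0.70, adjusted p = 0.00476) and CD31+ cells (-2.66, standard error 0.69, adjusted p = 0.00608) were below CD54+CD31- cells. P2 and CD31+ cells, which overlapped, differed by -0.13 (standard error 0.73, adjusted p = 0.881). Beside the E18.5 level stand the 8 of 8 lung epithelium, 4 of 4 cholangiocyte, 4 of 4 mesothelial, and 7 of 7 tested stellate and mesenchymal markers that rose in the same comparison, whose part in it was not tested.

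Icam4 encodes a red cell ICAM, the carrier of the Landsteiner-Wiener blood group, and belongs to the erythroid lineage whose markers P2 cells carried. It had 0 counts in each of the 12 libraries, which allows up to 0.0388 to 0.0944 CPM a library if 3 counts are taken as the limit, for counting error only and not for reads left unassigned. The gene (ENSMUSG00000001014, chromosome 9 from 21029373 to 21030595) starts 556 bases after the end of Icam1, and all of its 1110 exon bases lie within exons of Gm47079, an antisense gene on the opposite strand. Gm47079 itself had 26 to 46 counts in P2 cells, 18 to 121 in CD31+ cells, and 4 to 9 and 37 to 99 in CD54+CD31- cells at E14.5 and E18.5. The same 0 was common to genes in this position. Of 35 protein-coding genes with all exon bases inside exons of an opposite-strand gene, 32 (91.4%) had 0 counts in all 12 libraries, and none of the 35 had more than 22 counts in any, against 3021 of 17413 (17.3%) genes with no such bases. The setting of strand in the counting is not given in the sources used here, so the 0 is not read as a lack of Icam4 transcripts. Icam1 shares 511 of its 4360 exon bases (11.7%) with the same antisense gene, Vcam1 61 (0.688%) with another, and the other 6 members none.

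**Figure D3:**
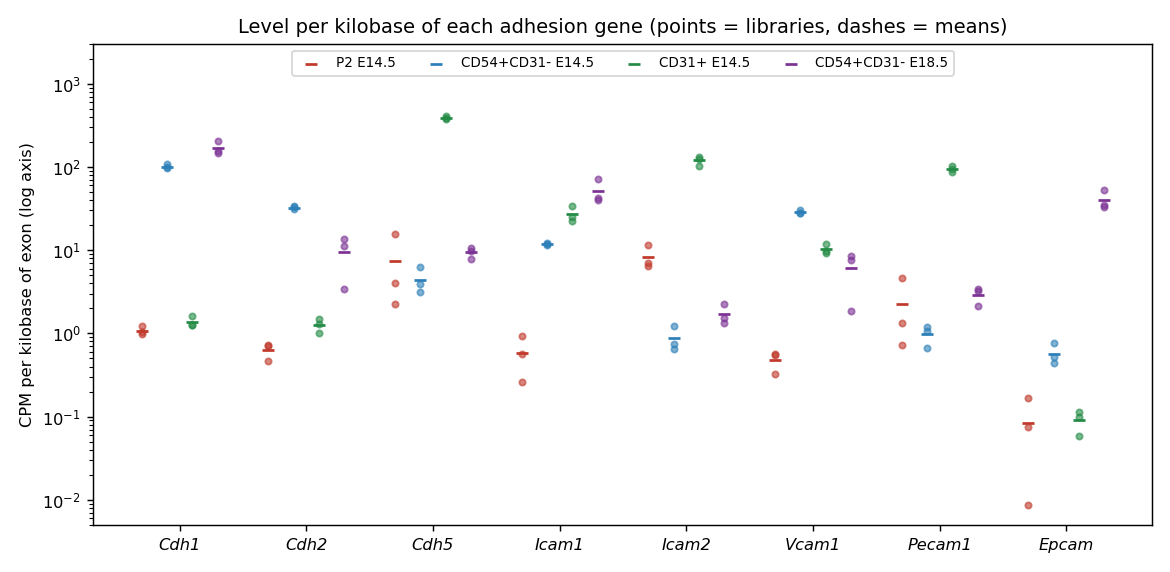
CPM per kilobase of exon, on a log axis, for 8 adhesion genes in the 4 groups; points are libraries and dashes the means of 3. Cdh1 leads in both CD54+CD31- groups, Cdh5 in CD31+ cells, and Icam2 by its mean in P2 cells, where Cdh5 is at 15.7 in replicate 2 and at 2.24 and 3.99 in the others.

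Per kilobase of exon, levels can be compared between genes. In E14.5 CD54+CD31- cells Cdh1 was first at 101 ± 5.73 CPM per kilobase (SD, n = 3 libraries), followed by Cdh2 at 32.4 ± 1.52, Vcam1 at 28.6 ± 1.39, and Icam1 at 11.9 ± 0.464. With the length of the longest transcript in place of all exons, Vcam1 (62.1) stood above Cdh2 (54.0), so the order of these 2 depends on the length used. In CD31+ cells Cdh5 had 391 ± 14.7, Icam2 120 ± 15.2, Pecam1 94.8 ± 8.27, and Icam1 27.1 ± 6.01, the same order of means with either length. Icam2 and Pecam1 overlapped with either length. With the longest transcript, Pecam1 (158) was above Icam2 (153) in CD31+ replicate 3. In P2 cells Icam2 had 8.37 ± 2.78 and Cdh5 7.31 ± 7.32, which overlapped, and every other member was at 2.24 or below. The Cdh5 mean rests on P2 replicate 2 (15.7, against 2.24 and 3.99), and without it Cdh5 had 3.12 and Icam2 6.77, with no overlap. At E18.5 Cdh1 had 169 ± 32.9, Icam1 51.5 ± 17.6, and Epcam 40.4 ± 11.2, the last 2 overlapping. The other 5 detected members lay between 1.70 and 9.45. With the longest transcript, Icam1 (69.1 to 123) and Epcam (35.4 to 57.3) did not overlap, so that overlap depends on the length used.

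**Figure D4:**
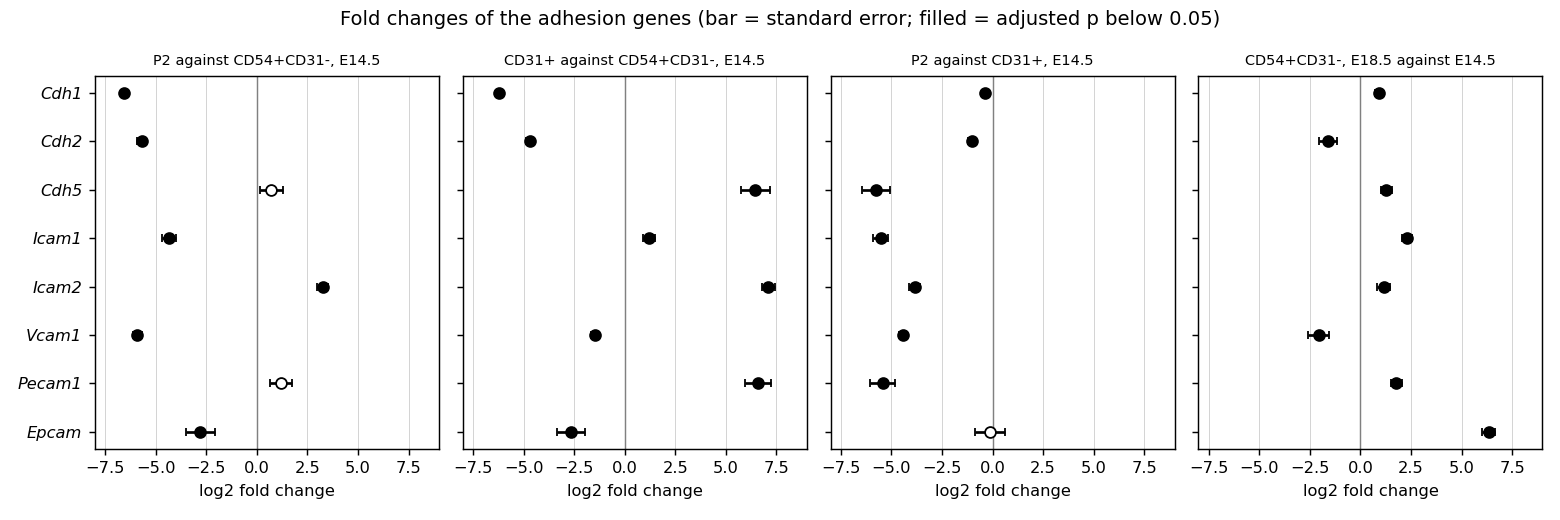
Log2 fold changes of 8 adhesion genes in 4 comparisons, with bars for the standard error and filled points for adjusted p below 0.05 (edgeR). P2 cells lie below CD31+ cells for every called member, and above CD54+CD31- cells for Icam2 alone among those called.

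The 2 comparisons of E18.5 CD54+CD31- cells with the other E14.5 populations serve the order of levels only, since age and population cannot be told apart in them. Against P2 cells 5 members were higher and 1, Icam2, lower at E18.5, with a background of 80.6% (44.0% higher, 36.6% lower). Icam2 was 4.94-fold lower there (-2.30, standard error 0.28, adjusted p = 1.33e-05). Cdh5 (0.37, adjusted p = 0.542) and Pecam1 (0.38, adjusted p = 0.506) did not pass, and without P2 replicate 2 both did (1.60, adjusted p = 0.000676, and 1.50, adjusted p = 0.00102). E18.5 CD54+CD31- cells and P2 cells are thus neighbors in the order of Cdh5 and Pecam1 whose libraries overlap.

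The genes whose pattern lay closest to each member over the 12 libraries were found among 16643 genes. The measure was the root mean square difference of centred log2 values of CPM plus 0.5, where 0 is an identical pattern. For Cdh5 the closest genes were Nova2 (0.265), Thsd1 (0.275), and Rasgrp3 (0.279), and for Pecam1 Adcy4 (0.218), Akr1b8 (0.221), and Rasgrp3 (0.255). Pecam1 was itself the gene at place 7 for Cdh5 (0.310). Icam2 had no gene as near, with Shank3 at 0.470, Fam124a at 0.493, and Plvap, a gene of fenestrated endothelium, at 0.603. Cdh2 was nearest to Tenm3 (0.167), Reln (0.224), and Aldh1l1 (0.252), and Vcam1 to Hs3st3b1 (0.224), Dennd5b (0.306), and Abat (0.371). Cdh1 was nearest to the transcription factor gene Tfcp2l1 (0.423), the desmosomal gene Dsp (0.438), and Sdc4 (0.440), and Icam1 to Parva (0.357), Erbb2 (0.424), and Mdfic (0.448). The genes nearest to Epcam were the collagen gene Col6a2 (0.249), Fbln5 (0.297), and F3 (0.308). Epcam lay below 0.5 CPM in all CD31+ and P2 libraries, where the added 0.5 flattens differences. The difference takes in the levels of the 4 groups as well as the spread within them, so a small one says only that 2 genes share both.

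Most catenins and their partners, which tie cadherins to the cytoskeleton, were lower in P2 cells than in either other E14.5 population. Of 16 genes listed and tested, 2 were higher and 13 lower than in CD54+CD31- cells (median log2 fold change -1.66, against -0.01 over all genes), and 0 were higher and 13 lower than in CD31+ cells (median -3.13). Nectin3 (-5.05, adjusted p = 2.60e-09) and Afdn (-4.55, adjusted p = 1.21e-07), the gene of the nectin-binding protein afadin, changed most against CD54+CD31- cells. Ptprb, whose phosphatase product associates with VE-cadherin, had 777 ± 15.9 CPM in CD31+ cells and 13.7 ± 13.7 in P2 cells (SD, n = 3 libraries), a log2 fold change of -5.84 (adjusted p = 1.68e-05), and Jup, which encodes plakoglobin, changed by -4.77 (adjusted p = 2.80e-07). Between CD31+ and CD54+CD31- cells 8 of the 16 were higher and 3 lower, led by Ptprb (8.17, adjusted p = 4.35e-06) and Nectin1 (-2.34, adjusted p = 6.73e-07). At E18.5 13 were higher and 0 lower than at E14.5, led by Ctnnd2 (7.63, adjusted p = 2.12e-05) and Nectin4 (6.01, adjusted p = 0.000127). Beside this count and those of the lists below stand the 8 of 8 lung epithelium, 4 of 4 cholangiocyte, 4 of 4 mesothelial, 7 of 7 tested stellate and mesenchymal, and 9 of 9 endothelial markers that were higher in the same comparison of ages, and their part in the lists was not tested. Over all genes tested, 33.8% were higher and 36.1% lower in P2 than in CD54+CD31- cells, and 34.3% and 39.4% than in CD31+ cells. The shares were 31.7% and 34.0% between CD31+ and CD54+CD31- cells, and 35.9% and 33.5% between E18.5 and E14.5. They apply to the lists below too, and a count near them is not read as a result about a list.

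Of 20 other cadherins listed, 11 passed the low count filter at E14.5. In P2 cells 0 were higher and 5 lower than in CD54+CD31- cells, and 0 higher and 5 lower than in CD31+ cells. Over all genes 36.1% and 39.4% were lower in these comparisons, and 33.8% and 34.3% higher. Cdh10 (-3.41, adjusted p = 0.00415) and Cdh6 (-2.76, adjusted p = 0.00173) changed most against CD54+CD31- cells, from 5 to 26 counts a library there. Of this list, Cdh4 and Cdh13 had the largest changes in CD31+ cells, with 88.0 ± 25.9 and 32.5 ± 10.9 CPM (SD, n = 3 libraries). Their log2 fold changes were 6.27 (adjusted p = 1.34e-06) and 4.77 (adjusted p = 0.000150) against CD54+CD31- cells, where 4 of the list were higher and 3 lower, and P2 cells were below CD31+ cells by -6.02 (adjusted p = 1.19e-06) and -5.33 (adjusted p = 5.99e-05). At E18.5 10 of 16 tested were higher and 1 lower than at E14.5. Cdh16, the kidney-specific cadherin gene that is also active in some other epithelia, had 50.1 ± 16.0 CPM (9.72, adjusted p = 3.64e-05), and Cdh8 12.1 to 14.2 CPM (6.05, adjusted p = 0.000675).

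Among 16 other adhesion genes of the immunoglobulin family, 15 of them tested, 3 were higher and 6 lower in P2 than in CD54+CD31- cells, and 0 higher and 12 lower than in CD31+ cells. The shares of all genes were 33.8% higher and 36.1% lower in the former, and 34.3% and 39.4% in the latter comparison. Cadm1 (-5.29, adjusted p = 2.25e-08) and Alcam (-4.78, adjusted p = 4.79e-08) changed most against CD54+CD31- cells, and Madcam1 (-5.93, adjusted p = 1.34e-06) and Mcam (-5.44, adjusted p = 1.88e-05) against CD31+ cells. The study's flow cytometry drew the Kit and CD24 populations among cells negative for the products of Alcam and of Itgav, named below. Neither protein is among the gates given for these libraries. CD31+ cells had 9 higher and 3 lower than CD54+CD31- cells, led by Esam (7.53, adjusted p = 5.13e-06), an adhesion molecule of endothelial tight junctions, and Mcam (7.27, adjusted p = 6.37e-06). At E18.5 11 were higher and 0 lower than at E14.5, led by L1cam (6.52, adjusted p = 3.68e-05) and Esam (4.53, adjusted p = 5.99e-05), beside endothelial markers with a median log2 fold change of 2.58, mesothelial ones with 6.65, and stellate and mesenchymal ones with 2.86.

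The integrin genes listed as receptors of ICAMs, VCAM-1, and PECAM-1 numbered 10, of which 8 were tested at E14.5. Their counts stand beside the shares of all genes called that are given with the catenins. P2 cells had 2 higher and 3 lower than CD54+CD31- cells, led by Itgav (-3.58, adjusted p = 2.35e-09) and Itgal (-2.95, adjusted p = 1.13e-05), the alpha chain of LFA-1. Itga4, the alpha chain of the VCAM-1 receptor VLA-4, was named after its values were seen: it had 493 ± 54.6 CPM in P2 cells, 64.0 ± 17.5 in CD54+CD31- cells, and 62.8 ± 13.2 in CD31+ cells (SD, n = 3 libraries), and was higher in P2 cells than in both (2.93, adjusted p = 9.16e-07, and 2.96, adjusted p = 9.12e-07). P2 cells had 1 higher, Itga4, and 6 lower than CD31+ cells, led by Itga9 (-4.63, adjusted p = 1.08e-07) and Itgb3 (-3.08, adjusted p = 3.56e-05). CD31+ cells had 5 higher and 2 lower than CD54+CD31- cells, led by the same pair, Itga9 (3.71, adjusted p = 2.67e-07) and Itgb3 (2.78, adjusted p = 9.22e-05), and 4 higher and 2 lower with the replicate block. At E18.5 4 of 9 tested were higher and 1 lower than at E14.5, led by Itga9 (4.15, adjusted p = 2.74e-05) and Itgax (1.48, adjusted p = 0.0278), the latter from at most 32 counts a library.

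Selectins and their ligands, the molecules of leukocyte rolling, were 7, with 6 tested. For this list too, the shares of all genes called are those given with the catenins. Podxl, a sialomucin gene, had 294 ± 28.3 CPM in P2 cells and 25.2 ± 8.50 in CD54+CD31- cells (SD, n = 3 libraries; 3.53, adjusted p = 2.23e-07), and Selplg, the gene of the P-selectin ligand, changed by 2.85 (adjusted p = 4.28e-06). In that comparison 2 were higher and 1 lower, or 2 higher and 3 lower without P2 replicate 2, and against CD31+ cells 1 was higher and 4 lower, led by Sele (-6.12, adjusted p = 0.000177). All 6 were higher in CD31+ than in CD54+CD31- cells, led by Sele (7.76, adjusted p = 0.000144), which ranged from 7.47 to 60.4 CPM over the CD31+ libraries, and Cd34 (5.10, adjusted p = 9.45e-05). At E18.5 3 were higher and 0 lower than at E14.5, led by Sele (3.23, adjusted p = 0.0110) and Podxl (3.04, adjusted p = 0.000200).

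Of 5 relatives and partners of EpCAM, 4 were higher and 0 lower at E18.5 than at E14.5, beside 35.9% and 33.5% of all genes. Among the 4, the tetraspanin gene Tspan8 changed by 4.08 on the log2 scale (adjusted p = 6.29e-05). The all-gene shares for the comparisons below are given with the catenins. P2 cells had 2 higher and 2 lower than CD54+CD31- cells, led by Cd9 (-4.31, adjusted p = 1.75e-07) and Cldn7 (-3.50, adjusted p = 9.85e-05), and 2 higher and 3 lower than CD31+ cells, among the latter Cd9 (-3.19, adjusted p = 1.31e-06). CD31+ cells had 2 higher and 3 lower than CD54+CD31- cells, among the latter Cldn7 (-2.23, adjusted p = 0.00137).

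The transcription factors known as repressors of Cdh1 were 7, with 6 tested at E14.5. Here as well, the counts stand beside the all-gene shares given with the catenins. CD31+ cells, at 5.84 to 7.33 CPM of Cdh1, had 4 higher and 0 lower than CD54+CD31- cells, led by Twist1 (6.03, adjusted p = 6.85e-06) and Zeb2 (2.90, adjusted p = 6.29e-08), the latter at 376 ± 14.2 CPM (SD, n = 3 libraries). P2 cells, at 4.51 to 5.56 CPM of Cdh1, had 2 higher and 2 lower than CD54+CD31- cells, led by Snai1 (-5.31, adjusted p = 4.19e-06), from 0 to 6 counts a P2 library, and Snai2 (-2.06, adjusted p = 0.00174). The 2 higher ones, named after their values were seen, were more abundant: Zeb2 had 154 to 165 CPM in P2 and 38.7 to 62.3 in CD54+CD31- cells (1.65, adjusted p = 2.62e-06), and Tcf3 356 to 400 and 146 to 151 CPM (1.31, adjusted p = 2.17e-06). P2 cells had 1 higher, Tcf3, and 5 lower than CD31+ cells, led by Snai1 (-5.76, adjusted p = 2.20e-06) and Twist1 (-4.89, adjusted p = 9.67e-06). At E18.5 3 of 7 tested were higher and 1 lower than at E14.5, led by Twist2 (5.53, adjusted p = 0.000281) and Snai2 (1.87, adjusted p = 0.000109). Cdh1 was also higher there. The part of these factors in the Cdh1 level of any group was not tested.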

How the data were processed

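Sorted cells were sequenced with a stranded total RNA kit after enzymatic removal of ribosomal RNA. The authors trimmed reads with cutadapt 1.11, aligned them to GRCm38 with STAR 2.5.0a, and counted them per gene with featureCounts 1.4.6-p3, as the submitters' processing notes and the methods name them. The strand setting, the annotation release, and the treatment of reads with several alignments are not given in the sources used here. The authors deposited raw counts and a normalized score (the count times 1 factor per library), and the score was used only to read that factor.

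Counts were tested with edgeR 4.0.16 in R 4.3.3 (TMM, filterByExpr, quasi-likelihood, Benjamini-Hochberg over all genes tested, adjusted p below 0.05). The 9 E14.5 libraries were fitted together, the 6 CD54+CD31- libraries together, and all 12 for the remaining comparisons. Each standard error is the size of the log2 fold change over the square root of F. Coordinates and exon lengths are those of GENCODE vM21, matched by identifier for 37932 of 38127 genes. At these depths the 3 libraries per group limit precision more than counting. No 2 libraries of a group were taken for duplicates (chi-square divided by its degrees of freedom, 42.0 or more).

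The replicate numbers in the sample labels were checked for pairing. Same-numbered libraries were the best match for all 3 numbers only between CD31+ and CD54+CD31- cells (correlations 0.298, 0.215, and 0.101). The replicate block changed no member's call in that comparison, and 1 call in the adhesion gene lists. Between P2 and CD31+ cells the correlations were 0.042, 0.083, and 0.295, and P2 replicate 2 matched another number better. Alternatives were other size factors, DESeq2 1.42.0, other filters, the block, other libraries in the fit, and each library left out. Named list genes were the 2 with the largest change per list and comparison among those called without overlap between libraries. Some genes that this rule names are not reported here. The members and lists were chosen with earlier results of these data known.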

Additional observations from a re-analysis of the deposited data

How the results depend on the processing

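Of 691 alternative values of the members' log2 fold changes, 667 kept their direction and side of the threshold, 13 were no longer called, 6 became called, and 5 changed sign. With each library left out in turn, the sign changed for members that had not been called. Cdh5 between P2 and CD54+CD31- cells ranged from -0.52 (without P2 replicate 2) to 1.12. Epcam between P2 and CD31+ cells ranged from -1.02 to 0.43, with 0.13 without CD31+ replicate 2 and 0.43 without P2 replicate 3. Between E18.5 and P2 cells, Cdh5 ranged from -0.048 to 1.60 and Pecam1 from -0.025 to 1.50, the negative values without P2 replicate 1. The cause was not tested. The remaining change was Vcam1 between E18.5 and CD31+ cells, which was called with the replicate block (-0.93, adjusted p = 0.0455) in a comparison whose numbers were not shown to pair. With the replicate block 10910, 11460, 10326, and 10329 genes were called in the 4 main comparisons, against 10815, 11395, 10150, and 11014, and it changed no other call of a member. The alternatives of both comparisons of E18.5 with other E14.5 populations were chosen after seeing the data.

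The authors' factors moved the median log2 fold change of all genes from -0.01 to -0.27 (P2 against CD54+CD31-), from -0.13 to -0.50 (P2 against CD31+), from -0.03 to 0.08 (CD31+ against CD54+CD31-), from 0.03 to 0.27 (E18.5 against E14.5), from -0.18 to 0.14 (E18.5 against CD31+), and from 0.26 to 0.96 (E18.5 against P2). The share of called genes that were higher went from 48.3% to 38.2%, 46.6% to 33.9%, 48.3% to 53.4%, 51.7% to 60.9%, 43.3% to 56.8%, and 54.6% to 70.0%. No called member changed direction. Epcam could not be fitted with at least 10 counts in every library in 5 comparisons.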
